A study of Mus musculus with 12 samples.

Results

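The glucocorticoid receptor, the enzyme that makes its active hormone inside cells, and 8 genes known as its targets were followed in mouse lung after abdominal sepsis. The 10 genes are the receptor gene Nr3c1, the enzyme gene Hsd11b1, and the target genes Fkbp5, Tsc22d3, Sgk1, Zbtb16, Klf9, Pdk4, Cdkn1a and Errfi1. They were taken by symbol, as the probe sets that the platform table pairs with a member's symbol, or an older form of it, and with no other gene. That gave 30 of 45037 probe sets and 10 of 18193 named genes. Where a gene had several, the probe set of highest mean log2 signal stood for it, and all 10 of these passed the filter on low signals. RNA of whole lung had been hybridised to 12 arrays in 4 groups of 3. Wild-type mice of the strain Balb/c and mice labelled PPTA knockout, all 8 to 10 weeks old, underwent cecal ligation and puncture (CLP) or a sham operation, and lungs were taken 8 h later. CLP, in which the cecum is tied off and pierced, lets gut bacteria into the abdomen. PPTA is a former symbol of Tac1, which encodes the substance P precursor. The labels name no strain for the knockout, which leaves strain and genotype as 2 differences that cannot be told apart. They do not say that the 3 samples of a group came from separate mice, so p-values reflect only the spread of these samples, and that spread may be technical.

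Cortisol and corticosterone cross the cell membrane and bind the glucocorticoid receptor, a transcription factor held in the cytoplasm by chaperones. The bound receptor enters the nucleus, where it switches on genes at palindromic response elements and restrains inflammatory transcription factors. In the lung it matures the alveolar epithelium, and in infection the adrenal hormone surge limits inflammation. Fkbp5 encodes a chaperone partner that lowers the receptor's affinity for hormone, which closes a feedback loop, and its transcript is often used as a gauge of receptor activity.

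In the knockout-labelled arrays the Tac1 signal did not go down as the label would have it. It read 2.80 to 8.34 in wild-type sham, with 10.8 ± 6.21 (SD, n = 3) in wild-type CLP, 450.4 ± 75.8 in knockout-labelled sham and 413 ± 67.1 after knockout-labelled CLP. The sources used here do not place the probe set relative to the deleted part. A probe set outside that part and an exchange of the genotype labels cannot be told apart here, and an exchange would turn the direction of every genotype difference below. "Knockout-labelled" therefore repeats the label only. The lung marker Sftpc was strong on all arrays (8797 to 11412), and the summed signal of 4 hepatocyte markers was at most 85.2. Within groups, correlations between arrays were at least 0.983 in both wild-type groups, 0.937 to 0.981 in knockout-labelled sham and 0.952 to 0.973 after knockout-labelled CLP. Among the knockout-labelled sham arrays number 3 differed from the others, with 646 probe sets at least 2-fold above both other arrays of its group and 758 at least 2-fold below. The main counts, and the values that it moved most, are also given without it.

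Promoter sequences are shown for Sgk1, Tsc22d3 and Fkbp5, since the receptor's palindrome, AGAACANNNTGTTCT, can be looked for in them. RefSeq windows of assembly GRCm38.p6 from 250 bases before to 50 bases after a start site were found for 8 of the 10 genes, all but Nr3c1 and Zbtb16, in 17 windows. Of the 32851 such windows of all genes, 3 (0.00913%) held the full 15-base motif, and 1 of the 3 belonged to Sgk1. The single arms of the motif, AGAACA or TGTTCT, stood in 19.0% of all windows and in 4 of the 17, of which 3 were windows of Sgk1 and 1 of Tsc22d3. In the sequences below, read 5′ to 3′ on the gene's strand, capitals mark these arms and the palindrome.
Sgk1 (chr10:21993640-21993939, + strand): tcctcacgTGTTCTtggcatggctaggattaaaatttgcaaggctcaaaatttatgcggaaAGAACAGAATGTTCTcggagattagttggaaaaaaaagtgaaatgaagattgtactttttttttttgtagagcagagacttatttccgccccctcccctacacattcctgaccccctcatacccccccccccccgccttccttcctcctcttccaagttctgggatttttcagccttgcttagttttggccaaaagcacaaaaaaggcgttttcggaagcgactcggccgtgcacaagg
Tsc22d3 (chrX:140600473-140600772, - strand): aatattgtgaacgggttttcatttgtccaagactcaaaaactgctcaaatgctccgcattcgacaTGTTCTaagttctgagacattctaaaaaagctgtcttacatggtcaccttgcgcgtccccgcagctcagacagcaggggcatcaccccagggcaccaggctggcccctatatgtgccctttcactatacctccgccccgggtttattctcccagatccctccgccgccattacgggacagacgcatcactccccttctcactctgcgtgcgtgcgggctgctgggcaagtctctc
Fkbp5 (chr17:28486100-28486399, - strand): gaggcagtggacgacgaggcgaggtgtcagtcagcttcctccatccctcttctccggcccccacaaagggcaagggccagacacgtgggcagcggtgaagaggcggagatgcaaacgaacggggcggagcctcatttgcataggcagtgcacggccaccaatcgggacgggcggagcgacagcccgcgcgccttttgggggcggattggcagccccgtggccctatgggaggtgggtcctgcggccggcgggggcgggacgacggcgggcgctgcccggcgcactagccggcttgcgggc
The Sgk1 palindrome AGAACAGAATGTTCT lay at chr10:21993701-21993715, beginning 189 bases before the start site of the window. The Tsc22d3 arm began 185 bases before its start, and the Fkbp5 window held neither arm. The Sgk1 window shown is the only window of that gene with the palindrome, and the Tsc22d3 window the only window of its gene with an arm. They do not stand for the other windows of these genes. A match is a string of letters in a window, the probe sets are not tied here to any of the 6 start sites of Sgk1, and binding was not measured.

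The first question is how these genes responded to CLP in each genotype. In the wild type none of the 10 was called higher or lower at an adjusted p under 0.05 (limma over all 24574 probe sets tested, with Benjamini-Hochberg adjustment), where 1.1% of the 11859 represented genes were called higher and 0.059% lower. Signals are the deposited linear intensities in arbitrary units, and log2 differences were taken after 3.47 had been added to each signal. At an unadjusted p under 0.05 limma gave 3 of the 10 (Sgk1, Cdkn1a and Errfi1), against 7.74% of represented genes, and their log2 estimates were all above 0. In the knockout-labelled lungs 3 of the 10 rose, Fkbp5 2.51-fold, Errfi1 1.88-fold and Sgk1 1.48-fold, and none fell, against 11.4% of represented genes called higher and 19.9% called lower. The median log2 difference of the 10 was 0.04 in the wild type, where that of all represented genes was -0.03, and 0.60 in the knockout-labelled lungs, where it was -0.11. The response itself differed between genotypes for 1 of the 10, Fkbp5, with 1.86% of represented genes called in that direction and 3.13% in the other. The CLP arrays did not overlap the sham arrays for 5 of the 10 genes in the wild type and 3 in the knockout-labelled lungs, where this held for 23.8% and 38.3% of represented genes. In whole tissue, fewer cells of a type and less RNA per cell cannot be told apart.

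**Figure D1:**
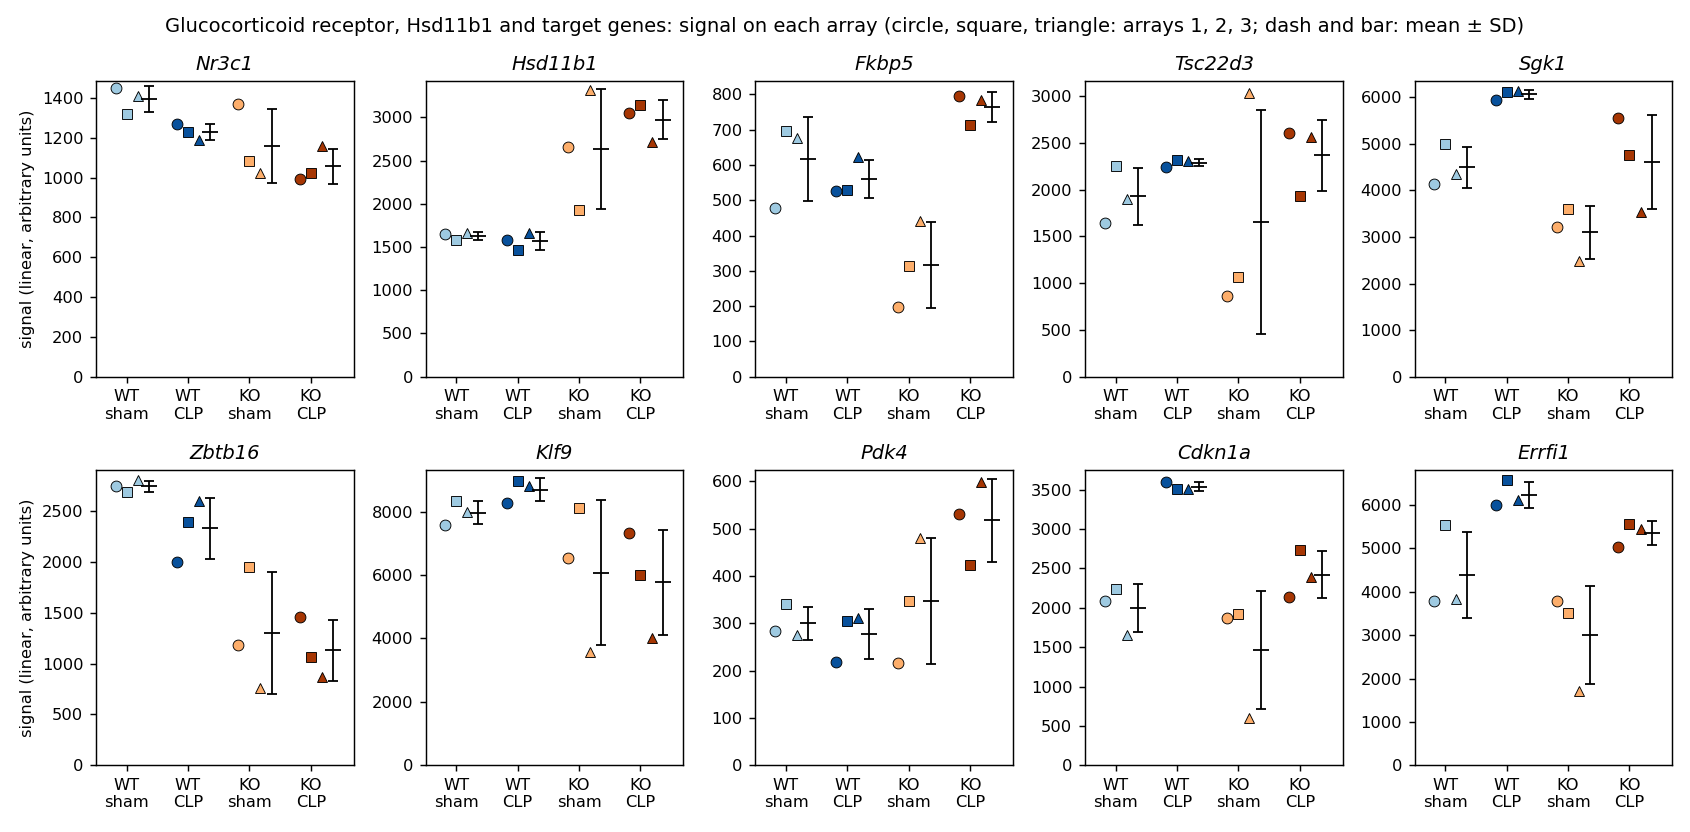
Linear signal of each gene's representing probe set on each of the 12 arrays (circle, square and triangle for arrays 1, 2 and 3; dash and bar for the mean ± SD), by group; WT is wild type and KO knockout-labelled. Fkbp5 is lowest in knockout-labelled sham (198 to 440.4) and highest in knockout-labelled CLP (714 to 795), and the triangle of knockout-labelled sham lies apart for Tsc22d3, Klf9, Cdkn1a and Errfi1.

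Calls in the wild type also varied with the arrays of the other genotype that shared the model. With array 3 of knockout-labelled sham left out of the shared model, Cdkn1a (adjusted p = 0.0016) and Errfi1 (adjusted p = 0.046) were called higher in the wild type with the same log2 estimates, and with only the wild-type arrays in the model Sgk1 was called as well (adjusted p = 0.0022). Without that array 7 of the 10 rose in the knockout-labelled lungs, where 14.5% of represented genes did, and the response differed for 3 of the 10 (Fkbp5, Tsc22d3 and Pdk4), where 6.2% of represented genes were called in that direction.

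**Figure D2:**
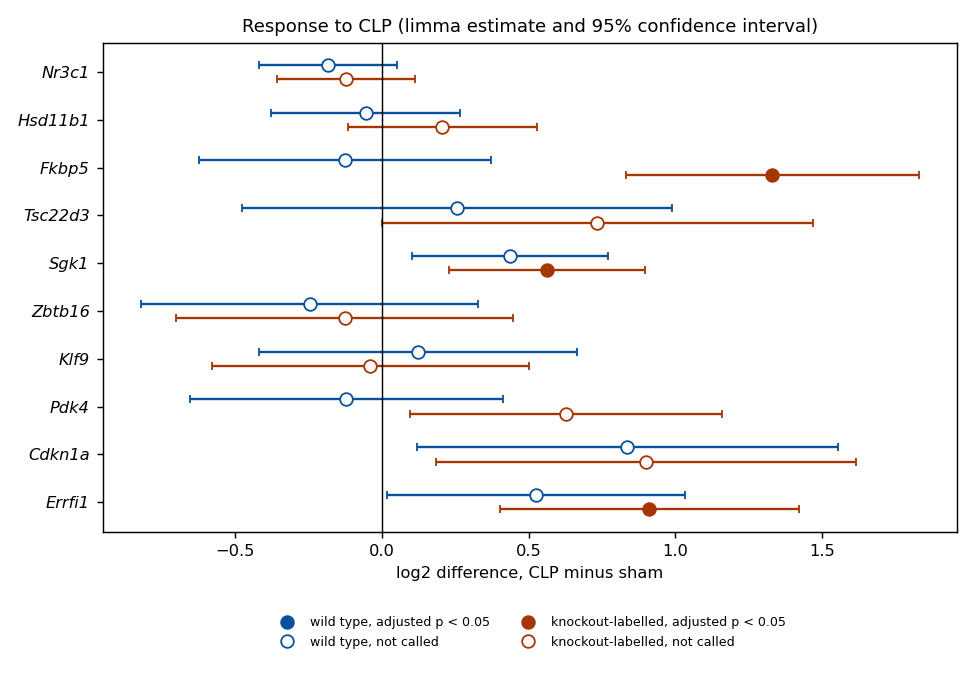
Log2 difference of CLP minus sham for each gene in the wild type and in the knockout-labelled lungs, as limma estimates with 95% confidence intervals; filled points passed an adjusted p under 0.05. The intervals of the 2 genotypes lie apart for Fkbp5 (-0.62 to 0.37 against 0.83 to 1.83) and share values for each of the other genes.

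Nr3c1, the receptor gene, was not called in any of the 5 comparisons by its representing probe set. Its signals were 1450.4, 1321 and 1411 in wild-type sham and 1268, 1229 and 1186 after wild-type CLP, which did not overlap. They were 1371, 1081 and 1021 in knockout-labelled sham and 993, 1021 and 1157 after knockout-labelled CLP, which did. The log2 difference after CLP was -0.18 ± 0.11 (SE) in the wild type (adjusted p = 0.75) and -0.12 ± 0.11 in the knockout-labelled lungs (adjusted p = 0.42), and the interval of the difference between these responses ran from -0.27 to 0.39. The knockout-labelled estimate was 0.01 once arrays were centred on their medians, so it has no settled sign. Of the other probe sets of the gene, 4 passed the filter, and 2 of these 4 were lower in knockout-labelled than in wild-type CLP. One read 1005, 1088 and 947 in wild-type CLP against 769.7, 707 and 778 in knockout-labelled CLP, a log2 difference of -0.43 ± 0.08 (adjusted p = 0.0028). In the other the difference was -0.52 ± 0.12 (adjusted p = 0.0058). The representing probe set gave -0.22 ± 0.11 in the same comparison and was not called (adjusted p = 0.15).

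Hsd11b1 encodes the reductase that regenerates active corticosterone from its inert keto form inside cells. Its signals were 1648, 1579.9 and 1659.8 in wild-type sham and 1581, 1465 and 1666 after wild-type CLP, which lay over each other. They were 2656, 1927 and 3316 in knockout-labelled sham and 3055, 3143 and 2717 after knockout-labelled CLP, so that every knockout-labelled array stood above every wild-type array. The log2 difference after CLP was -0.05 ± 0.15 in the wild type (adjusted p = 0.98) and 0.21 ± 0.15 in the knockout-labelled lungs (adjusted p = 0.31). With array 3 of knockout-labelled sham left out, the highest of the 12, the latter was 0.39 and passed the threshold (adjusted p = 0.023).

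Fkbp5 showed the clearest contrast. Its signals were 479, 696 and 677 in wild-type sham and 527, 530.2 and 623 in wild-type CLP, with wide overlap. In knockout-labelled sham they were 198, 314 and 440.4, and in knockout-labelled CLP 795, 714 and 783. The knockout-labelled groups thus lay below and above all wild-type arrays. The log2 difference after CLP was -0.12 ± 0.23 in the wild type (adjusted p = 0.97) and 1.33 ± 0.23 in the knockout-labelled lungs (adjusted p = 0.0015), or 1.60 when array 3 of knockout-labelled sham was left out (adjusted p = 1.2e-04). The difference between these responses was 1.45 ± 0.33 (95% interval 0.75 to 2.16; adjusted p = 0.032). It was called in 4 of the 12 runs that left out 1 array, with the highest adjusted p (0.093) without array 2 of wild-type CLP, a value of 1.42, and the lowest (0.0024) without array 3 of knockout-labelled sham, a value of 1.73.

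A second Fkbp5 probe set gave a larger difference. It read 186, 252 and 274 in wild-type sham, 160.4, 144 and 203 after wild-type CLP, 82.7, 95.5 and 117 in knockout-labelled sham, and 377, 344 and 296 after knockout-labelled CLP. No knockout-labelled sham array reached any wild-type array, and no wild-type array reached any array of knockout-labelled CLP. The knockout-labelled response was 1.75 ± 0.18 (3.37-fold; adjusted p = 9.1e-05), while the wild-type estimate was -0.48 ± 0.18 (adjusted p = 0.43), and the difference between them 2.23 ± 0.26 (95% interval 1.66 to 2.80; adjusted p = 0.0030). It was called in 12 of the 12 runs that left out 1 array. Both comparisons and the sham comparison of genotypes share the knockout-labelled sham arrays, so a low sham level enters all of them.

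Tsc22d3 encodes GILZ, a leucine zipper protein that binds and restrains NF-kappaB. Its signals were 1639, 2249.7 and 1901 in wild-type sham and 2243, 2318 and 2304 after wild-type CLP. In knockout-labelled sham they were 859, 1070.2 and 3034, and in knockout-labelled CLP 2605, 1934 and 2559.9. Array 3 of knockout-labelled sham thus read 3.15 times the mean of the other arrays of its group and above all arrays of both CLP groups. The log2 difference was 0.26 ± 0.34 in the wild type (adjusted p = 0.94) and 0.73 ± 0.34 in the knockout-labelled lungs (adjusted p = 0.12). Without that array the knockout-labelled response was 1.29 (adjusted p = 9.0e-05), the difference between responses 1.03 (adjusted p = 0.0080), and the sham difference between genotypes -0.99 (adjusted p = 0.0011). A second probe set gave 554, 619 and 2201 in knockout-labelled sham against 1552 to 1955 in knockout-labelled CLP, with the same array apart.

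Sgk1 encodes a kinase that raises sodium transport and cell survival. Its signals were 4146, 4988 and 4359 in wild-type sham and 5946, 6119 and 6128 after wild-type CLP, with every CLP array higher. They were 3222, 3599 and 2488 in knockout-labelled sham and 5549, 4757 and 3539 after knockout-labelled CLP, where the lowest CLP array lay within the sham range. The log2 difference was 0.44 ± 0.15 in the wild type (adjusted p = 0.35) and 0.56 ± 0.15 in the knockout-labelled lungs (adjusted p = 0.017). Only the latter passed, and the difference between them was 0.13 ± 0.22 (adjusted p = 0.77). The knockout-labelled call was lost without array 1 (0.42, adjusted p = 0.052) or array 2 (0.53, adjusted p = 0.058) of knockout-labelled CLP, and with quantile normalisation (0.40, adjusted p = 0.092). When array 3 of knockout-labelled sham, the lowest of the 12, was left out it was 0.41 (adjusted p = 0.043).

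Zbtb16 (PLZF) and Klf9 encode zinc finger transcription factors. Zbtb16 signals were 2739, 2689 and 2798 in wild-type sham, 1996, 2390.3 and 2593 after wild-type CLP, 1182, 1946 and 764 in knockout-labelled sham, and 1457, 1063 and 871 after knockout-labelled CLP. The wild-type CLP arrays lay below the sham arrays, and neither response was called, at -0.25 ± 0.26 in the wild type and -0.13 ± 0.26 in the knockout-labelled lungs on the log2 scale (adjusted p = 0.91 and 0.75). The latter was -0.46 when array 3 of knockout-labelled sham was left out (adjusted p = 0.12). All knockout-labelled arrays lay below all wild-type arrays. Klf9 signals were 7589, 8325 and 7977 in wild-type sham and 8273, 8962 and 8812 after wild-type CLP, a narrow range. They spread from 3589 to 8096 in knockout-labelled sham and from 4004 to 7310.2 in knockout-labelled CLP, and the log2 responses were 0.12 ± 0.25 and -0.04 ± 0.25 (adjusted p = 0.97 and 0.92). The knockout-labelled estimates of both genes turned to values above 0 once arrays were centred on their medians.

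Pdk4 encodes a kinase that shuts pyruvate dehydrogenase and so spares glucose. Its signals were 285, 341 and 275 in wild-type sham, 218, 305 and 312 after wild-type CLP, 216, 347 and 481 in knockout-labelled sham, and 531, 424 and 598 after knockout-labelled CLP. All arrays of knockout-labelled CLP stood above all wild-type arrays, while those of knockout-labelled sham covered the whole wild-type range. The log2 response was -0.12 ± 0.25 in the wild type (adjusted p = 0.97) and 0.63 ± 0.25 in the knockout-labelled lungs (adjusted p = 0.071), with a difference between them of 0.75 ± 0.35 (adjusted p = 0.22). With array 3 of knockout-labelled sham left out the last values were 0.90 (adjusted p = 0.0077) and 1.02 (adjusted p = 0.039), and centring the arrays on their medians gave a response of 0.76 (adjusted p = 0.035).

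Cdkn1a encodes p21, an inhibitor of cyclin-dependent kinases. Its signals were 2089, 2242 and 1658 in wild-type sham and 3603, 3512 and 3504 after wild-type CLP, and 1867, 1925 and 596 in knockout-labelled sham and 2141, 2732 and 2392 after knockout-labelled CLP. In both genotypes every CLP array was above every sham array. The log2 response was 0.84 ± 0.33 in the wild type (adjusted p = 0.45) and 0.90 ± 0.33 in the knockout-labelled lungs (adjusted p = 0.058), and 0.35 in the latter when array 3 of knockout-labelled sham was left out (adjusted p = 0.044). Errfi1 encodes a feedback inhibitor of the EGF receptor. Its signals were 3794, 5533 and 3841 in wild-type sham, 6001, 6562 and 6115 after wild-type CLP, 3784, 3516 and 1718 in knockout-labelled sham, and 5029, 5562 and 5450.2 in knockout-labelled CLP. The CLP arrays were again above the sham arrays in both genotypes. The log2 response was 0.53 ± 0.23 in the wild type (adjusted p = 0.57) and 0.91 ± 0.23 in the knockout-labelled lungs (adjusted p = 0.012), and a second Errfi1 probe set gave 1.24 ± 0.25 in the latter (adjusted p = 0.0034). Array 3 of knockout-labelled sham was the lowest of its group, and without it the representing probe set gave 0.55 (adjusted p = 0.0072).

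The second question is how the genotypes differed after the same operation. After sham, 1 of the 10 genes was higher in the knockout-labelled lungs, Hsd11b1 at 1.58-fold, against 4.87% of represented genes. Fkbp5, Sgk1 and Zbtb16 were lower there, with wild-type levels 2.01, 1.46 and 2.27 times as high, against 3.89% of represented genes. After CLP, Hsd11b1 (1.89-fold) and Pdk4 (1.86-fold) were higher, against 13% of represented genes. Zbtb16 alone of the 10 was lower by its representing probe set, against 18.7%. When array 3 of knockout-labelled sham was left out, 1 was higher (Hsd11b1) and 3 lower (Fkbp5, Tsc22d3 and Zbtb16) after sham. In that model 5.94% of represented genes were higher and 4.87% lower after sham. After CLP it gave 2 higher and 4 lower, the latter with Sgk1, Klf9 and Cdkn1a added, against 16.1% and 22.7% of represented genes. The groups did not overlap for 5 of the 10 genes after sham and for 9 of the 10 after CLP, where this held for 31.3% and 49.9% of represented genes.

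**Figure D3:**
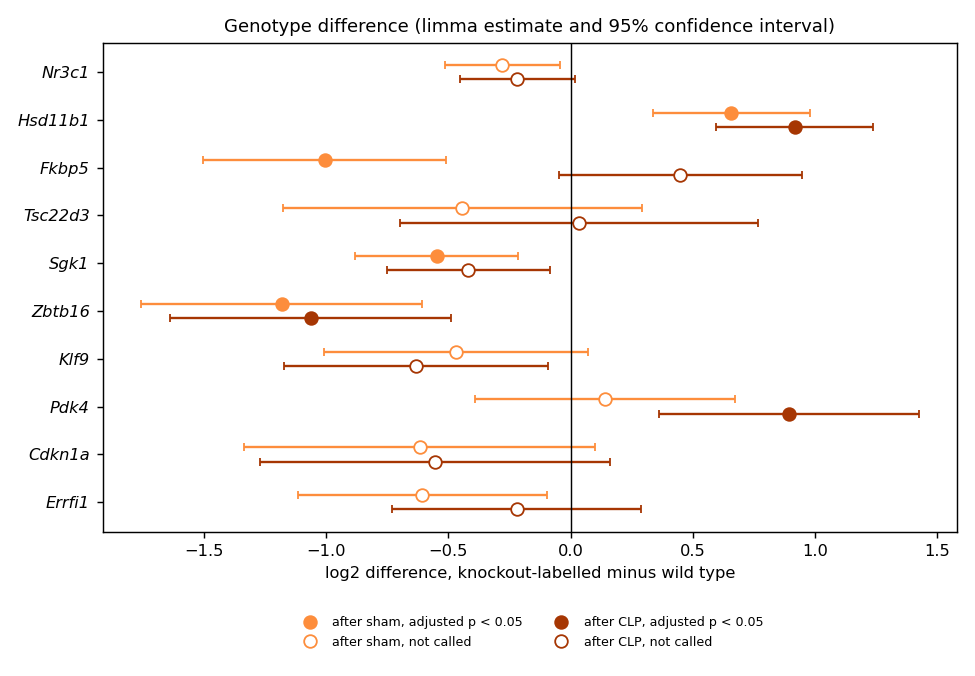
Log2 difference of knockout-labelled minus wild type for each gene after sham and after CLP, as limma estimates with 95% confidence intervals; filled points passed an adjusted p under 0.05. Hsd11b1 lies above 0 and Zbtb16 below 0 after both operations, while the Fkbp5 estimate goes from -1.01 after sham to 0.45 after CLP.

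Hsd11b1 differed by 0.66 ± 0.15 on the log2 scale after sham (adjusted p = 0.016), and after CLP by 0.92 ± 0.15 (adjusted p = 8.5e-04). The CLP call was made in 12 of the 12 runs that left out 1 array and the sham call in 9, with adjusted p = 0.064 without array 2, 0.053 without array 1 and 0.053 without array 3 of wild-type sham. The sham value was 0.47 when array 3 of knockout-labelled sham was left out (adjusted p = 0.024). Zbtb16 differed by -1.18 ± 0.26 after sham (adjusted p = 0.016) and, once CLP had been done, by -1.06 ± 0.26 (adjusted p = 0.010). Array 3 of knockout-labelled sham had the lowest Zbtb16 signal of the 12, and when it was left out the sham difference was -0.85 (adjusted p = 0.025). The other 2 Zbtb16 probe sets were called lower after both operations as well, with log2 differences from -1.53 to -0.74. The CLP call of the representing probe set was made in 12 of the 12 runs and the sham call in 9, with adjusted p from 0.052 to 0.059 when an array of wild-type sham was left out.

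Fkbp5 differed by -1.01 ± 0.23 after sham (adjusted p = 0.017), and its second probe set differed by -1.23 ± 0.18 (adjusted p = 0.0011). After CLP the first gave 0.45 ± 0.23 and was not called (adjusted p = 0.16), whereas the second was higher in the knockout-labelled lungs by 0.99 ± 0.18 (adjusted p = 0.0020). The sham call of the first was lost without array 2 (adjusted p = 0.079) or array 3 (adjusted p = 0.077) of wild-type sham, and the value was -1.28 when array 3 of knockout-labelled sham was left out (adjusted p = 0.0011). Sgk1 differed by -0.55 ± 0.15 after sham (adjusted p = 0.046), a call made in 3 of the 12 runs that left out 1 array (adjusted p = 0.17 without array 2 of wild-type sham), and by -0.42 ± 0.15 after CLP (adjusted p = 0.058). When array 3 of knockout-labelled sham was left out, the sham value was -0.40 and not called (adjusted p = 0.12), while the CLP value kept its size and was called (adjusted p = 0.024). Pdk4 differed by 0.14 ± 0.25 after sham (adjusted p = 0.78) and, once CLP had been done, by 0.89 ± 0.25 (adjusted p = 0.017). The latter was lost without array 1 of wild-type CLP (0.73, adjusted p = 0.073) or array 3 of knockout-labelled CLP (0.78, adjusted p = 0.059).

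For 2 more genes the probe sets differed in their calls. Of the 7 Klf9 probe sets tested, all gave log2 differences below 0 after CLP and 4 were called lower, the strongest at -1.32 ± 0.37 (adjusted p = 0.018), while the representing one gave -0.63 ± 0.25 (adjusted p = 0.075). For Cdkn1a, the weaker probe set read 2449, 2539 and 2341 in wild-type CLP and 836, 1290.5 and 424 in knockout-labelled CLP, far apart. Its log2 difference was -1.66 ± 0.42 after CLP (adjusted p = 0.011) and -1.50 ± 0.42 after sham (adjusted p = 0.043), where the representing probe set gave -0.55 ± 0.33 and -0.62 ± 0.33 (adjusted p = 0.23 and 0.30). The sham call of the weaker probe set was made in 5 of the 12 runs that left out 1 array, and without array 3 of knockout-labelled sham it was lost (-0.97, adjusted p = 0.085).

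Spread over arrays also differed between groups. The coefficient of variation over the 3 arrays had a median over the 10 genes of 4.47% in wild-type CLP, 10.8% in wild-type sham, 14.0% after knockout-labelled CLP, while that of knockout-labelled sham was 37.9%. Array 3 of the last group was the highest of its group for 4 genes and the lowest for the other 6. Tsc22d3, Fkbp5 and Pdk4 were there 3.15, 1.72 and 1.71 times the mean of the other arrays, and Cdkn1a, Errfi1, Zbtb16 and Klf9 were below that mean by factors of 3.18, 2.12, 2.05 and 2.04.

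**Figure D4:**
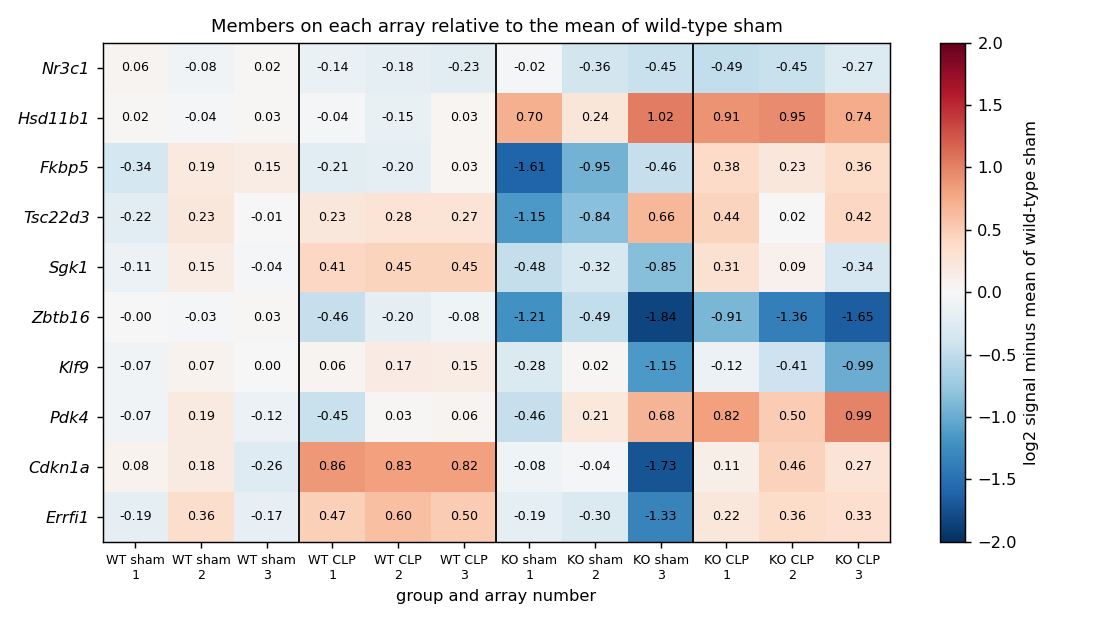
Log2 signal of each gene on each of the 12 arrays minus its mean in wild-type sham, as a colour scale (genes in rows, arrays in columns by group). Array 3 of knockout-labelled sham is the only array of its group with Tsc22d3 above the wild-type sham mean, and it has the lowest values of the 12 for Cdkn1a and Errfi1.

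Marker levels of several cell types differed between the same arrays. The summed signal of 8 alveolar macrophage markers, among them Chil3 and Mrc1, was 3447 and 3881 on arrays 1 and 2 of knockout-labelled sham, 10266 on array 3, 9280 to 10053 in knockout-labelled CLP and 3734 to 4021 over both wild-type groups, so that array 3 stood with the CLP arrays, as it did for Tsc22d3. On array 3 and in knockout-labelled CLP most of this sum came from Chil3. The other 7 markers summed to 2377 and 2504 on arrays 1 and 2 of knockout-labelled sham, 4218 on array 3, 3452 to 4026 in knockout-labelled CLP and 2925 to 3159 over both wild-type groups. Marco, a defining marker of these cells, read 1.08 to 9.36 over both wild-type groups, 24.9 to 198 in knockout-labelled sham and 105 to 151 after knockout-labelled CLP. It exceeded the array median on 5 arrays, all knockout-labelled, and passed the filter through these alone. No call of Marco between genotypes is therefore read as a result. Pparg also exceeded the array median on 5 arrays, most of them knockout-labelled. Both genes are among the 8 markers counted below. The counts of the 8 between genotypes and for knockout-labelled CLP thus describe the list only and are not read as a result. Of the 8, 2 (Chil3 and Mrc1) rose with CLP in the knockout-labelled lungs, where 11.4% of represented genes did, and none in the wild type, where 1.1% did. With array 3 of knockout-labelled sham left out, 6 and none rose, where 14.5% and 1.94% of represented genes did. Between genotypes after CLP 4 of the 8 were higher in the knockout-labelled lungs and 1 was lower, where 13% and 18.7% of represented genes were. The lower marker was Car4, with a mean of 1278 against 1672, while Fabp4 gave a log2 difference of 0.0093 (adjusted p = 0.98). Car4 and Fabp4 had means of 1747 and 687 in wild-type sham, where the mean of Marco was 3.87. Much of the sum of the other 7 markers came from Car4 and Fabp4. Whether their signal came from alveolar macrophages was not tested. The summed signal of 7 neutrophil markers was 8447 to 14571 in wild-type sham and 31564 to 33871 after wild-type CLP. It was 10049, 14299 and 26326 in knockout-labelled sham and 28959 to 32655 after knockout-labelled CLP. Of the 7, 5 rose in each genotype, where 1.1% of represented genes did in the wild type and 11.4% in the knockout-labelled lungs. The sum of 8 cardiac muscle markers was 10077 to 15778 in knockout-labelled sham, 4410 to 8021 in knockout-labelled CLP and 3500.1 to 4344 over both wild-type groups. With CLP 7 of the 8 fell in the knockout-labelled lungs, where 19.9% of represented genes did. The sum of 6 fibroblast markers was 7905 to 10050.0 in knockout-labelled CLP against 10232 to 13070 in the other groups. With CLP in the knockout-labelled lungs 4 of the 6 fell and 1 rose, where 19.9% and 11.4% of represented genes did. Pdgfra went there from a mean of 1728 after sham to 2197 after CLP. The sum of 5 adipocyte markers was 264 to 466 in knockout-labelled CLP against 682 to 1308 in the other groups. Of the 4 of these that were tested, 3 were lower than in wild-type CLP, where 18.7% of represented genes were. For 2, Adipoq and Car3, the response was lower in the knockout-labelled lungs, where it was for 3.13% of represented genes. Lep was at most 9.13 on every array. The sum of 5 smooth muscle markers was 3369 to 4605 in knockout-labelled sham, 2797 to 3214 in knockout-labelled CLP and 2984 to 3306 over both wild-type groups. Of the 5, 3 fell with CLP in the knockout-labelled lungs, again beside 19.9% of represented genes. Between genotypes after CLP, 2 of 7 endothelial and 3 of 5 alveolar type 2 markers were lower in the knockout-labelled lungs, where 18.7% of represented genes were. None of either list was higher. After sham 2 of the 5 type 2 markers were lower there, beside 3.89% of represented genes. What part of the differences in Fkbp5, Tsc22d3, Zbtb16 or the other genes goes with these cell types was not tested.

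The receptor works with chaperones and cofactors, of which 17 of 21 listed could be tested. In the wild type limma called none with CLP, and none had an unadjusted p under 0.05. In the knockout-labelled lungs 4 of 17 fell with CLP and none rose, near the 19.9% of represented genes called lower and beside 11.4% called higher, with a list median of -0.15 on the log2 scale against -0.11 for all represented genes. Fkbp4, whose product competes with that of Fkbp5 on the receptor complex and carries it to the nucleus, read 419, 426 and 392 in wild-type sham, 309, 287 and 355 after wild-type CLP, 301, 441 and 221 in knockout-labelled sham, and 159.9, 123 and 119 in knockout-labelled CLP. Every array of knockout-labelled CLP was below all others, and the gene fell by 1.20 ± 0.21 on the log2 scale (adjusted p = 0.0014). The coactivator Ncoa1 fell by 0.70 ± 0.17 (adjusted p = 0.0099) and its relative Ncoa3 by 0.71 ± 0.21 (adjusted p = 0.024), the latter called in 9 of the 12 runs that left out 1 array. Hsp90aa1, the chaperone that holds the receptor ready for hormone, fell by 0.25 ± 0.09 (adjusted p = 0.047), a call made in 3 of these 12 runs (adjusted p = 0.18 with array 2 of knockout-labelled sham left out).

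Between genotypes, 1 of these 17 was higher in the knockout-labelled lungs after each operation, where 4.87% of represented genes were after sham and 13% after CLP. None was lower after sham (3.89% of represented genes) and 5 were lower after CLP (18.7%). When array 3 of knockout-labelled sham was left out of the model, 9 were lower after CLP, where 22.7% of represented genes were, and the response was lower for 3 where limma had called none, beside 9.01% of represented genes. The gene that was higher was Med1, a Mediator subunit that binds nuclear receptors, with 278 to 325 over wild-type sham and 292 to 301 over wild-type CLP against 491 to 605 and 531 to 593. Its log2 difference was 0.82 ± 0.11 after sham (adjusted p = 3.7e-04), and 0.91 ± 0.11 was found after CLP (adjusted p = 1.0e-04). Over the processing alternatives the lowest Med1 estimates were 0.38 after sham and 0.39 after CLP. The highest limma adjusted p-values, 0.043 and 0.016, came when the probe sets of the gene were averaged. After CLP Fkbp4 differed by -1.23 ± 0.21 (adjusted p = 0.0011), Ncoa1 by -0.76 ± 0.17 and Ncoa3 by -0.81 ± 0.21. The list median after CLP was -0.25 against -0.06 for all represented genes.

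Hormone supply, export and the related mineralocorticoid receptor gave 5 tested genes of 7 listed, none of them called for CLP in the wild type or for the difference between responses. At an unadjusted p under 0.05 limma gave 0 and 1 of the 5. Hsd11b2, which inactivates corticosterone and so works against the product of Hsd11b1, read 33.5, 24.9 and 48.5 in knockout-labelled sham and 52.6, 112 and 156 in knockout-labelled CLP. It rose by 1.41 ± 0.35 on the log2 scale (adjusted p = 0.0099), from a signal near the array medians of 31.1 to 38.4. Nr3c2, the mineralocorticoid receptor gene, went from 103, 85.8 and 79.6 to 64.0, 60.9 and 45.3 and fell by 0.63 ± 0.18 (adjusted p = 0.021). The call was lost when array 1 of knockout-labelled sham was left out (adjusted p = 0.079). Of the steroid exporters, Abcb1a fell by 0.45 ± 0.13 (adjusted p = 0.020), called in 10 of the 12 runs that left out 1 array. Abcb1b read 64.0, 48.4 and 78.0 in knockout-labelled CLP, 19.8 to 32.4 in knockout-labelled sham and 9.63 to 22.8 over both wild-type groups. It exceeded the array median only in knockout-labelled CLP and passed the filter through that group alone, so its call there is not read as a result.

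Of 32 other genes known to be induced by glucocorticoids, 30 could be tested. With CLP 9 of the 30 rose in the wild type, where 1.1% of represented genes did, and 17 in the knockout-labelled lungs, where 11.4% did. None fell in either, with list medians of 0.31 and 0.63 on the log2 scale against -0.03 and -0.11 for all represented genes. With array 3 of knockout-labelled sham left out, 21 rose and 2 fell in the knockout-labelled lungs, where 14.5% and 23.3% of represented genes did. Several of these genes also answer to cytokines or mark neutrophils. The decoy receptor gene Il1r2 rose by 3.04 ± 0.31 in the wild type (adjusted p = 4.9e-04) and by 4.06 ± 0.31 in the knockout-labelled lungs (adjusted p = 1.9e-05). In the wild type Cebpd, a transcription factor of the acute phase, rose by 1.28 ± 0.21 (adjusted p = 0.013), and the call was lost without array 3 of wild-type CLP (adjusted p = 0.086). The metallothionein gene Mt2 rose there by 2.02 ± 0.30 (adjusted p = 0.0073; 0.058 without array 1 of wild-type CLP).

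In this list the log2 response was higher in the knockout-labelled lungs for 2 genes, against 1.86% of represented genes, and lower for none, against 3.13%. These counts rest on array 3 of knockout-labelled sham: when it was left out, 13 were called higher and 1 lower, where 6.2% and 9.01% of represented genes were. Map3k6, a stress kinase gene, had the same order of group means as Fkbp5. It read 147, 165 and 137 in wild-type sham, 87.8, 95.7 and 155 after wild-type CLP, 33.6, 34.2 and 129 in knockout-labelled sham, and 236, 225 and 349 after knockout-labelled CLP. Array 3 of knockout-labelled sham lay near the wild-type arrays. The difference between responses was 2.67 ± 0.57 (adjusted p = 0.029), called in 4 of the 12 runs that left out 1 array (adjusted p = 0.084 without array 2 of wild-type CLP), and 3.28 when array 3 of knockout-labelled sham was left out (adjusted p = 3.1e-04). The metallothionein gene Mt1 rose from 1044, 1553 and 1203 to 3277, 2667 and 3229 in the wild type and from 1720.0, 1738 and 1023 to 6267, 8505 and 9633 in the knockout-labelled lungs. Its responses were 1.28 ± 0.21 and 2.46 ± 0.21, and their difference, 1.18 ± 0.30 (adjusted p = 0.049), was called in 2 of the 12 runs. Under the other processing alternatives it was called in 4 of 9. The highest limma adjusted p among these (0.36) came when the probe sets of the gene were averaged.

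After sham, 4 of the 30 induced genes were lower in the knockout-labelled lungs and 1 was higher, where 3.89% and 4.87% of represented genes were, with a list median of -0.21 against 0.01 for all represented genes. The numbers were 6 lower and 1 higher when array 3 of knockout-labelled sham was left out, where 4.87% and 5.94% of represented genes were. Txnip, a brake on glucose uptake, differed by -0.65 ± 0.15 (adjusted p = 0.018), and Klf15, a metabolic transcription factor, by -0.96 ± 0.27 (adjusted p = 0.044). The scavenger receptor gene Cd163 differed by -0.94 ± 0.25 (adjusted p = 0.036) and Map3k6 by -1.42 ± 0.40 (adjusted p = 0.047). The calls of Txnip, Cd163, Klf15 and Map3k6 were made in 8, 6, 3 and 2 of the 12 runs that left out 1 array. When array 3 of knockout-labelled sham was the one left out, Map3k6 gave -2.03 (adjusted p = 1.8e-04) and Cd163 -1.23 (adjusted p = 0.0028), while Klf15 lost its call (-0.71, adjusted p = 0.11). After CLP, 9 of the 30 were higher and 2 lower, where 13% and 18.7% of represented genes were. The clock gene Per1 was the stronger of the 2, with 1028, 1417 and 1163 in wild-type CLP and 406, 349 and 412 in knockout-labelled CLP, far apart. Its log2 difference was -1.61 ± 0.34 (adjusted p = 0.0043), called in 12 of the 12 runs. Among the higher genes, Ampd3 differed by 1.50 ± 0.18 and Lcn2, a neutrophil and epithelial iron-binding protein gene, by 1.77 ± 0.32.

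**Figure D5:**
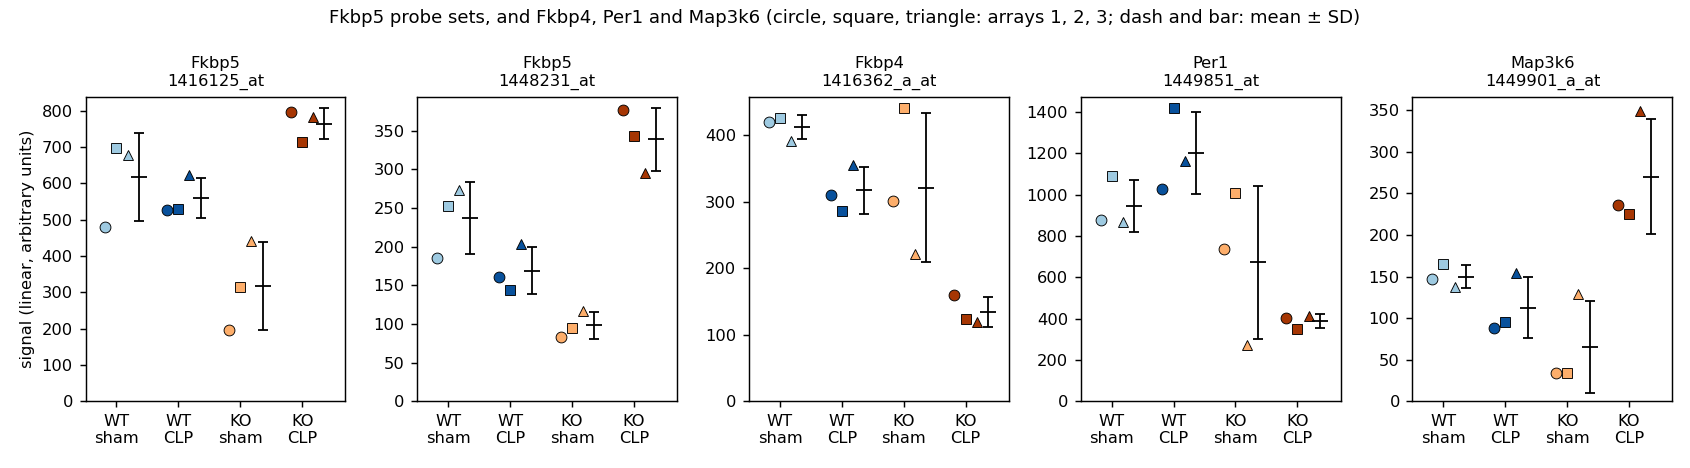
Linear signal on each of the 12 arrays for both Fkbp5 probe sets and for Fkbp4, Per1 and Map3k6 (circle, square and triangle for arrays 1, 2 and 3; dash and bar for the mean ± SD), by group. Fkbp5 and Map3k6 are highest in knockout-labelled CLP, where Fkbp4 (119 to 159.9) and Per1 (349 to 412) lie below all wild-type arrays.

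Of 14 genes known to be repressed by glucocorticoids, 12 could be tested, and with CLP 4 rose in the wild type, where 1.1% of represented genes did, and 7 in the knockout-labelled lungs, where 11.4% did, while none fell. Tnf and Csf2, which encode cytokines, exceeded the array median on 3 arrays each, Il6 on the 6 CLP arrays alone, and Ccl2 on these 6 and 1 sham array. These 4 genes thus passed the filter mainly through CLP arrays. The counts and list medians of this list include the 4 genes, so they are not read as a result about the list. In the model that left out array 3 of knockout-labelled sham, 6 and 8 of the 12 rose, where 1.94% and 14.5% of represented genes did. The list medians were 0.99 and 1.31 on the log2 scale, beside the -0.03 and -0.11 of all represented genes. The cytokine gene Il6 read 141, 93.1 and 105 in wild-type CLP and 466, 3501 and 2869 in knockout-labelled CLP, from 5.76 to 32.9 over both sham groups. All sham signals lay below the array medians, so its responses are lower bounds, set against those medians. They were at least 2.90-fold in the wild type (not called, adjusted p = 0.079 for the measured signals) and at least 40.4-fold in the knockout-labelled lungs (adjusted p = 6.0e-05). The gene passed the filter through the CLP arrays alone. Its knockout-labelled call, which is among the 7 above, is therefore not read as a result. Between genotypes after CLP, where all 6 arrays exceeded the median, Il6 was higher in the knockout-labelled lungs by 3.87 ± 0.66 on the log2 scale (adjusted p = 0.0012). The monocyte attractant gene Ccl2 was above the median on 1 of the 6 sham arrays. Set against the higher of its signal and the median on each sham array, it rose at least 2.92-fold in the wild type and at least 21.2-fold in the knockout-labelled lungs. For the measured signals limma gave adjusted p = 0.038 (0.19 without array 1 of wild-type CLP) and adjusted p = 6.3e-05. Since Ccl2 passed the filter mainly through CLP arrays, these 2 calls are not read as a result. The protease gene Mmp9, which is also on the neutrophil list, went the other way. It rose by 1.65 ± 0.13 in the wild type (adjusted p = 4.6e-05) and by 0.74 ± 0.13 in the knockout-labelled lungs (adjusted p = 0.0015), a difference of -0.91 ± 0.18 (adjusted p = 0.023) called in 5 of the 12 runs.

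Likeness of pattern was measured for 3 members as Pearson's r of log2 signals over the 12 arrays against 11858 other represented genes. The arrays fall into 4 groups, so r reflects group differences as well as differences between single arrays. For Nr3c1 the most similar genes were Gpm6b (0.92), Fstl1 (0.89) and Arl15 (0.89). For Fkbp5 they were Ctdspl2 (0.96), Klhl29 (0.95) and Akap2 (0.94), and 9 genes exceeded 0.9. For Tsc22d3 they were Dnajb9 (0.94), Cdc40 (0.93) and Zfp748 (0.92). Among the 10 members, r was highest between Cdkn1a and Errfi1 (0.96) and lowest between Hsd11b1 and Zbtb16 (-0.91). Fkbp5 and Tsc22d3 gave 0.80, and Nr3c1 with the other members ranged from -0.74 (Pdk4) to 0.61 (Zbtb16).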

How the data were processed

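Expression was measured in 12 whole-lung RNA samples, 1 per array, grouped by the labels into 4 groups of 3. The authors deposited linear signal intensities per probe set (GCOS, MAS5 and Affymetrix Expression Console, per the submitters' processing notes, with no versions given in the sources used here). The mean over all but the lowest and highest 2% of values was the same on every array, so the deposited intensities had been scaled to a common target. Detection calls and scan dates were not used here, so batches were not examined.

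Of 45101 probe sets, 64 controls were left out. Values were taken as log2 of the signal plus 3.47, 10% of the median of the array medians, which understates folds of weak genes. The 24574 probe sets whose signal exceeded the array median on 3 or more of the 12 arrays were tested. The platform table gave 34945 probe sets 1 symbol, 932 several and 9160 none. Only those with 1 symbol were named, and 34741 matched the RefSeq table of GRCm38.p6.

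limma 3.58.1 in R 4.3.3 fitted 4 group means, with moderation along an intensity trend and 5 contrasts. Benjamini-Hochberg adjustment was made within each contrast, and probe sets were called at an adjusted p under 0.05. ± after a log2 difference is its SE, and after a mean the SD. Levels are not compared between probe sets. The tests were checked on simulated data with normal noise of equal spread in all 4 groups. That check does not cover the unequal spread of these groups or an array that stands apart.

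Named were all 10 members, Tac1, and up to 4 genes called in each direction per list and comparison by smallest p. The 3 most similar genes for 3 members and up to 3 markers per cell type were named as well. For alveolar macrophages more markers than that were named. The members and lists were chosen with earlier results of these data known. Replicate numbers did not pair the samples. The arrays' number limits the precision. Alternatives were quantile normalisation, median centring, a pseudocount of 50% of the median, no filter, a filter of 9 arrays, no trend, array weights, a replicate block, a model of the compared groups alone, averaging over the probe sets of a gene, and leaving out single arrays.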

Additional observations from a re-analysis of the deposited data

Results flagged for a closer look

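In 6 probe sets of the members or of the named list genes the CLP response differed between genotypes by a test of the difference itself (limma interaction, knockout-labelled response minus wild-type response on the log2 scale). These were both Fkbp5 probe sets (1.45 and 2.23), Map3k6 (2.67), Mt1 (1.18), Il6 (3.99) and Mmp9 (-0.91). The stronger Fkbp5 result was called in 12 of 12 runs that left out 1 array. The others were called in 2 to 5 of the 12, and Mt1 in 4 of 9 other processing alternatives. The Il6 value rests on sham signals below the array medians. The gene passed the filter through CLP arrays alone, so this value is not read as a result. The knockout-labelled sham arrays, of which array 3 stood apart, enter all 6 values. Groups of 3 were too small for a search for outlying samples within a group.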

How the results depend on the processing

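Limits are the 3 arrays per group, the wide spread of knockout-labelled sham, and the spread shared by all groups in the model. With array weights, 3 of the 10 members were called higher for wild-type CLP (3.23% of all probe sets), 7 for knockout-labelled CLP (14.5%) and 2 for the difference in response (9.22%), and 6 were called for the genotype difference after CLP, 2 higher (17.3%) and 4 lower (25%). With only the 2 groups compared, these numbers were 3 for wild-type CLP (3.43% of all probe sets higher and 1.79% lower) and 1 for knockout-labelled CLP (4.53% and 6.34%). They were 0 for genotype after sham (3.17% and 2.64%) and 7 for genotype after CLP (12.3% and 15.6%), and the difference in response cannot be computed. Median centring gave 5 for knockout-labelled CLP (15.8% of all probe sets higher and 12.1% lower). Averaging over the probe sets of a gene gave 6 for genotype after CLP (12.7% and 18.1% of the averaged entries). Moderation without a trend gave 0 for the difference in response (1.15% and 1.84% of all probe sets), where Fkbp5 kept 1.45 with adjusted p = 0.051. Median centring also moved the median of all probe sets for knockout-labelled CLP from -0.12 to 0.01, and the share of higher among all called probe sets from 35.6% to 56.59%. With the replicate number as a block, 5 members were called for knockout-labelled CLP and 5 for genotype after CLP. Of all probe sets, 10.2% were then higher and 18.5% lower in the former, and 12.2% and 16.7% in the latter. Same-numbered samples correlated from -0.104 to 0.119 over 18 pairs, 2 of them over 0.1, so they share only a number. Leaving out 1 array at a time gave 0 to 2 members called for wild-type CLP, 2 to 7 for knockout-labelled CLP, 0 to 3 for the difference in response, 0 to 4 for genotype after sham and 2 to 6 for genotype after CLP. In the same order, 0.195% to 1.44%, 7.24% to 13.2%, 0.228% to 5.62%, 2.56% to 5.56% and 8.15% to 15.7% of all probe sets were called higher. Called lower were 0% to 0.321%, 13% to 22.5%, 0.208% to 7.74%, 1.99% to 5.01% and 10.4% to 20.9%.

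Signs turned only for values that were not called, with the cause not tested. For the difference in response these were Nr3c1 (-0.017 with quantile normalisation, -0.049 with array weights, -0.068 with averaged probe sets, -0.024 to 0.19 with 1 array left out), Zbtb16 (-0.11 with array weights, -0.21 to 0.46), Cdkn1a (-0.26 with array weights, -0.046 with averaged probe sets, -0.49 to 0.35), Sgk1 (-0.022 to 0.31) and Klf9 (-0.50 to 0.084). For knockout-labelled CLP they were Nr3c1 (0.0083 with median centring, -0.21 to 0.0056), Zbtb16 (0.0036 with median centring, 0.11 with averaged probe sets, -0.46 to 0.22), Klf9 (0.092 with median centring, -0.38 to 0.21) and Hsd11b1 (-0.00072 to 0.39). The others were Pdk4 for wild-type CLP (-0.21 to 0.045) and for genotype after sham (-0.089 with array weights, -0.13 to 0.45), and Tsc22d3 for genotype after CLP (-0.024 with quantile normalisation, -0.13 with array weights, -0.040 to 0.17). Over the single genes named, 2265 values under the alternatives kept their direction and side of the threshold, 250 lost a call, 47 gained one and 35 changed sign.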
